A study of Arabidopsis thaliana with 24 samples.

Results

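This account concerns the response to warmth of 7-day-old Arabidopsis seedlings that grew on Heatin, a synthetic small molecule that stimulates elongation of the hypocotyl, the embryonic stem. It compares the 3 RNA-sequencing samples of Heatin-treated seedlings grown at 27°C with the 3 grown on Heatin at 22°C, chosen by the treatment, temperature and age in their sample labels, so 6 of the 24 samples of the series. All were whole seedlings of the Col-0 wild type on agar without sucrose, in short days with 8 h of light, with 8.5 µM Heatin dissolved in 0.1% DMSO, and they were harvested at dawn. Mock seedlings received 0.1% DMSO alone, and the mock groups at 22°C and 27°C of the same age (3 samples each) and the Heatin-treated seedlings of 2 days (3 samples per temperature) serve here for comparison. Each sample pooled RNA from batches of many seedlings harvested separately, so the error between replicates is that between pools and not between plants. Of the 33540 genes listed, 23252 had a mean of at least 1 normalized read over the 12 samples of 7 days and were tested.

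Seedlings sense warmth of this kind, which is well below heat stress, through phytochrome B and the evening complex of the circadian clock, of which ELF3, ELF4 and LUX are the subunits. Both hold back PIF4, a transcription factor that drives auxin synthesis and cell elongation, and the resulting stretched growth is called thermomorphogenesis. Heatin was studied together with the NIT1 subfamily of nitrilases, enzymes that can convert indole-3-acetonitrile into the auxin indole-3-acetic acid, and with the aldehyde oxidases AAO1 to AAO4.

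Values are normalized read counts, that is read counts divided by a depth factor for each sample. Fold changes are differences of log2(normalized reads + 1) between 27°C and 22°C, which understate the change of genes with few reads, and a gene was called upregulated or downregulated where the p-value of limma, adjusted by Benjamini-Hochberg over all genes tested, was below 0.1. Between 19705950 and 33273619 reads lay on genes in the 22°C samples and between 24852763 and 47828021 in the 27°C samples. Replicates correlated across genes at 0.986 to 0.989 at 22°C and at 0.988 to 0.991 at 27°C. Reads that mapped to several places were counted for no gene. Relative to the reads on genes, they came to 8.40% to 12.4% at 22°C and 7.68% to 7.73% at 27°C. The 10 most abundant genes took 8.74% to 9.55% and 6.57% to 6.76% of the reads on genes. The name label of replicate 1 at 27°C lacks a tag that those of the other samples carry, and it correlated with replicates 2 and 3 at 0.988 and 0.991.

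Warmth changed the majority of genes in the Heatin-treated seedlings. Of the genes tested, 6832 (29.4%) were upregulated and 7788 (33.5%) were downregulated at 27°C. The excess of downregulated genes depended on the scaling, with 7344 up- and 7343 downregulated genes after median-of-ratios scaling, 7294 and 7400 after TMM scaling and 7384 and 7212 with voom. Beyond 2-fold there were 1177 upregulated genes (5.06%) and 1742 downregulated genes (7.49%), and beyond 4-fold 231 and 289. The median of all genes was -0.03 on the log2 scale and the median size of a change, regardless of sign, was 0.37. These percentages are the background against which the counts for each group of genes are to be read, and the plot of the gene lists sets the groups side by side. Seedlings grown throughout at 27°C may also have been further in development than those at 22°C, and a direct effect of temperature and one of developmental stage cannot be told apart here. In whole seedlings, fewer cells of a type and less RNA per cell cannot be told apart either.

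**Figure D1:**
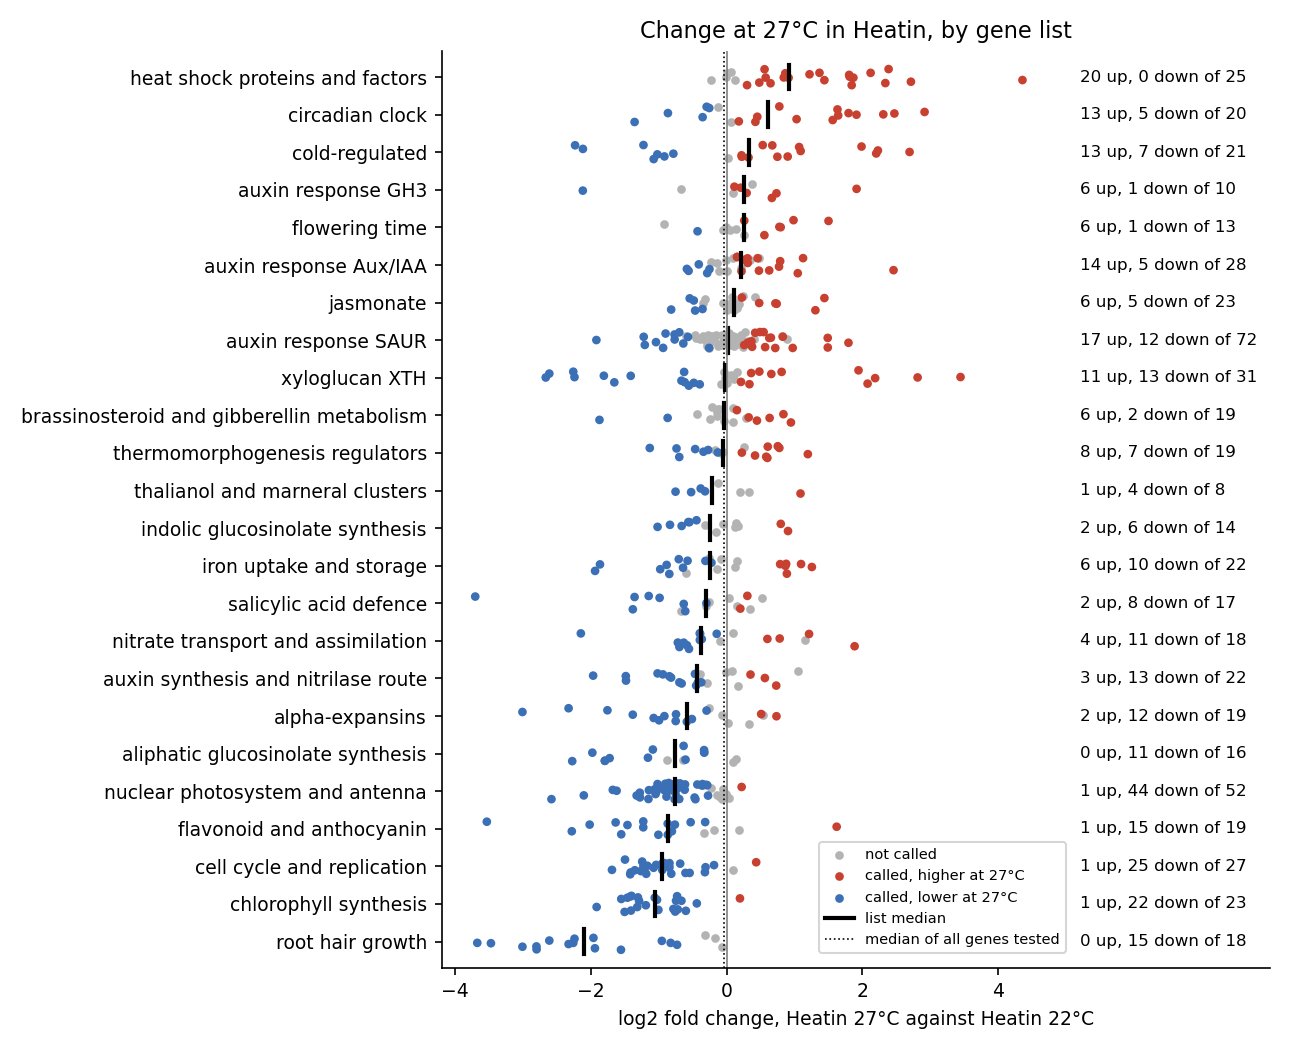
Log2 fold change of 27°C against 22°C in Heatin-treated 7-day-old seedlings for each tested gene of 24 lists, 1 point per gene. Red and blue points were called up- and downregulated, grey points were not called, the black bar is the median of a list and the dotted line that of all genes (-0.03). Heat shock genes lie furthest to the right with a median of 0.91, root hair genes furthest to the left with -2.10.

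The promoters of 4 genes are shown because their genes belong to responses described below, a small heat shock protein and a clock gene that rose, an antenna protein that fell and BHLH100, an iron regulator whose response was called different from that in mock, though in only 11 of 25 alternatives. Each is the stretch of 250 bases before the annotated gene start in TAIR10.1 (RefSeq), 5′ to 3′ on the strand of the gene, with motif matches in capitals. They lie at chr3:16984868-16985117 on the minus strand (HSP17.4), chr5:8358547-8358796 on the minus strand (PRR5), chr3:10255656-10255905 on the plus strand (LHCB2.3) and chr2:17199455-17199704 on the minus strand (BHLH100).
HSP17.4: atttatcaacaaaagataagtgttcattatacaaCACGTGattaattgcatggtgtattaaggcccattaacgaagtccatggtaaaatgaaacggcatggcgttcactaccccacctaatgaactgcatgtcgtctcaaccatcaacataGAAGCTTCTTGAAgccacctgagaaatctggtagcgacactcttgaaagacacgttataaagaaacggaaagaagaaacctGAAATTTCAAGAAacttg
PRR5: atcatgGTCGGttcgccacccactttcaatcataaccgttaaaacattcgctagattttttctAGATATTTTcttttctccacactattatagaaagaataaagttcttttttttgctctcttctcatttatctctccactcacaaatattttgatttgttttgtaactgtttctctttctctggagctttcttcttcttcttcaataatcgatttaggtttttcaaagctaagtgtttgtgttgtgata
LHCB2.3: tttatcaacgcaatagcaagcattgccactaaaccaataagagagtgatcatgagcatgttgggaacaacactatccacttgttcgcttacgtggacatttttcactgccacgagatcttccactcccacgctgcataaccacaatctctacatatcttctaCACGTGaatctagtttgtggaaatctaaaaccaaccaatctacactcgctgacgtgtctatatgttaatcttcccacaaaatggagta
BHLH100: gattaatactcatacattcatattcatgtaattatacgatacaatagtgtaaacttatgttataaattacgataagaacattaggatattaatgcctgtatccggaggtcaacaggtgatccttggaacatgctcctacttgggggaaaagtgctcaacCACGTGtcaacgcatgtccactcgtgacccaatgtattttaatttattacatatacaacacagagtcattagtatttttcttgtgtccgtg
The motifs searched, on both strands, were the G-box CACGTG, a core bound by PIF and other bHLH and bZIP proteins, the evening element AAAATATCT of evening-phased clock genes, the C-repeat core CCGAC bound by CBF proteins, and the heat shock element pairs GAANNTTC and TTCNNGAA, which were added after the values had been seen. Among 23077 promoters of this length, 7.14% held a G-box, 2.39% an evening element, 12.6% a C-repeat core and 15.8% at least 1 of the heat shock pairs. In the HSP17.4 promoter GAAGCTTC (99 to 92 bases before the start) overlaps TTCTTGAA (94 to 87), and GAAATTTC (18 to 11) overlaps TTCAAGAA (13 to 6), beside a G-box at 216 to 211. The PRR5 promoter holds the evening element on the other strand, read AGATATTTT, at 187 to 179, and a C-repeat core, read GTCGG, at 244 to 240. G-boxes stand at 88 to 83 in LHCB2.3 and at 91 to 86 in BHLH100. A match is a run of letters, and binding was not measured.

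Genes of the heat shock response rose together. Of 25 heat shock proteins and factors tested, 20 were upregulated and 0 downregulated, 12 of them beyond 2-fold, and the median was 0.91 on the log2 scale, against -0.03 for all genes. HSP17.4, a cytosolic small heat shock protein that binds unfolded proteins, had 28.4, 33.5 and 31.4 normalized reads in the 3 replicates at 22°C and 574, 803 and 611 at 27°C. That is the largest rise of all genes that met the rule for naming, with a log2 fold change of 4.36 (SE 0.15, adjusted p = 9.1e-12, limma), and the 2 groups lay far apart. Other small heat shock proteins rose as well. HSP17.6A went from 25.7, 62.0 and 81.5 to 312, 404 and 309 (log2 fold change 2.71), and HSP17.6II from 5.41, 19.8 and 18.8 to 79.5, 66.5 and 68.5 (2.39).
The chaperone HSP90.1 had 650, 662 and 690 normalized reads at 22°C and 2887, 3663 and 3640 at 27°C (log2 fold change 2.34, SE 0.10, adjusted p = 8.1e-11, limma). HSP70B, an inducible member of the HSP70 chaperones, rose from 295, 327 and 339 to 761, 936 and 794 (1.37). The heat shock factors of the list ranged from -0.01 for HSFB1 to 1.8 for HSFA2, the factor that sustains the heat response. Among the promoters of the list, 8 of 25 held at least 1 heat shock pair.

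**Figure D2:**
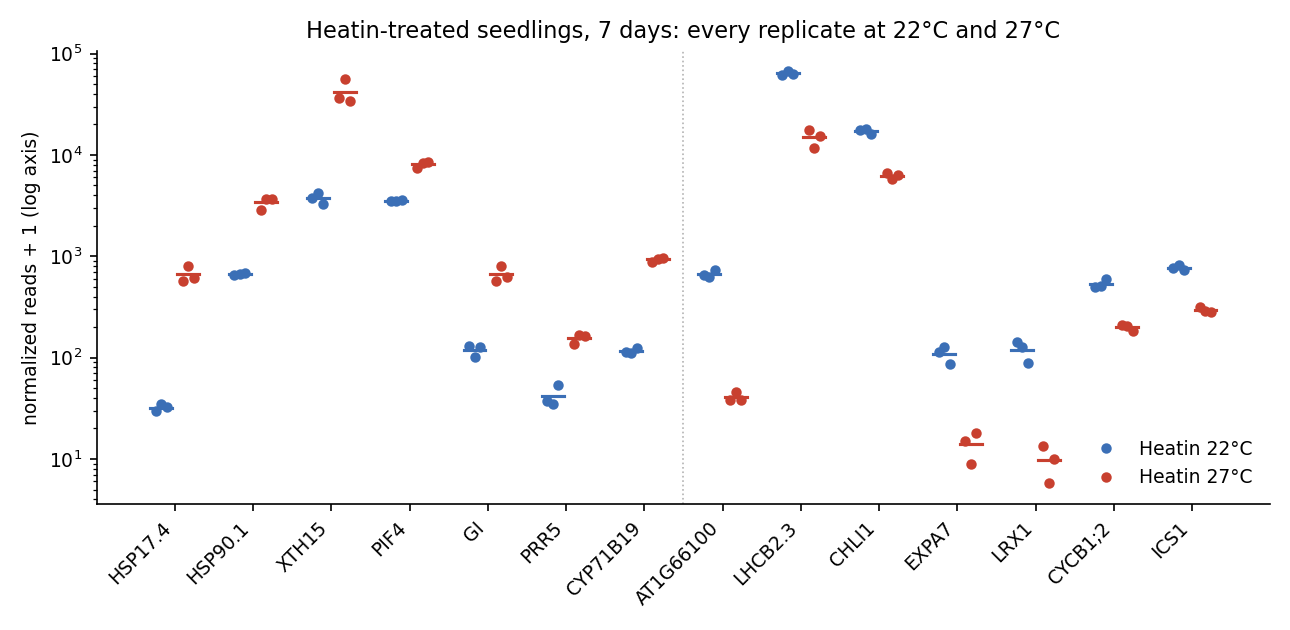
Normalized reads plus 1 (log axis) of 14 genes in each of the 3 replicates at 22°C (blue) and 27°C (red) in Heatin, with the mean of each group as a bar. Genes that rose stand left of the dotted line and genes that fell right of it, and no gene shown has overlapping groups.

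Other genes with large rises had diverse roles. Among the 12 largest, the log2 fold changes ran from 3.52 for AT2G23110, a late embryogenesis abundant (LEA) protein of group 6, to the 4.36 of HSP17.4. MYB120, a transcription factor known from pollen tubes and abscisic acid responses, had 1.35, 1.24 and 4.18 normalized reads at 22°C and 46.8, 69.7 and 61.2 at 27°C (log2 fold change 4.30, SE 0.43). GLYI7, a member of the glyoxalase I family, rose from 223, 114 and 209 to 2281, 3492 and 2181 (3.88), and the blue copper-binding protein BCB from 475, 154 and 579 to 3670, 5919 and 3907 (3.65). For both genes, replicate 2 was the lowest at 22°C and the highest at 27°C.
BRC1, a TCP transcription factor that holds back the outgrowth of side shoots, rose from 5.41, 3.72 and 8.36 to 51.4, 105 and 95.5 (log2 fold change 3.63). BETA-TIP, an aquaporin of the vacuole membrane known from seeds, rose from 46.0, 73.2 and 37.6 to 560, 790 and 485 (3.55), and APX2, a heat-inducible ascorbate peroxidase, from 0, 2.48 and 0 to 26.5, 20.6 and 18.0 (3.89). The remaining genes of the 12 were AT3G15440, a RING/U-box protein (3.95), AT1G71250, a GDSL lipase (3.94), AT2G33160, a member of the polygalacturonase family (3.84), and AT2G02030, an F-box protein (3.6). In each of the 12 the groups did not overlap, which the naming rule required.

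The largest fall was that of AT2G15020, a protein with no assigned role, which had 416, 476 and 550 normalized reads at 22°C and 3.12, 6.33 and 2.45 at 27°C. Its log2 fold change was -6.67 (SE 0.32, adjusted p = 1.8e-10, limma) and its mean was 121-fold lower at 27°C. AT1G29720, a leucine-rich repeat kinase, dropped from 158, 134 and 211 to 1.56, 6.33 and 1.63 (log2 fold change -5.50), and AT5G33370, a GDSL lipase, from 44.7, 43.4 and 107 to 1.56, 0 and 1.63 (-4.99). The expression of these 3 genes at 27°C was close to the limit of detection.
Next among the 12 largest falls, AT1G66100, a thionin, a class of antimicrobial peptide, had 647, 623 and 726 normalized reads at 22°C and 37.4, 44.3 and 37.5 at 27°C (log2 fold change -4.03, SE 0.11). LTP6, a lipid-transfer protein, fell from 525, 433 and 615 to a mean of 34.1, with at most 49.9 in a replicate (-4.01). TYRDC, a tyrosine decarboxylase, had 24.4, 23.6 and 27.2 at 22°C and 0 in all replicates at 27°C. With a floor of 3 reads per library, it was at least 5.27-fold lower at 27°C, and the lipid-transfer family gene AT5G59330, also at 0 at 27°C, was at least 4.69-fold lower. The other 5 of the 12 were AT3G43715, AT2G27420 (a cysteine proteinase), AT2G47530 (a Pollen Ole e 1 and extensin family gene), AT4G08410 (extensin-like) and AT4G08570 (a heavy metal transport family gene), with log2 fold changes from -4.85 to -4.02.

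Among core genes of thermomorphogenesis, PIF4 had 3537, 3515 and 3561 normalized reads at 22°C and 7439, 8369 and 8552 at 27°C, a log2 fold change of 1.20 (SE 0.06, adjusted p = 1.4e-10, limma), and was the most upregulated of the list. PIF7, a relative of PIF4 that acts in shade and in daytime warmth, fell from 319, 279 and 284 to 133, 141 and 127 (-1.13). HFR1, an atypical bHLH protein that binds PIFs and limits them, rose from 2044, 2194 and 2630 to 3899, 3504 and 4134 (0.75). Over the 19 regulators tested, 8 were upregulated (42.1%, against 29.4% of all genes) and 7 downregulated (36.8%, against 33.5%), with a median of -0.06.

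Most clock genes were higher at 27°C at dawn, while MYB genes of the clock that peak around dawn were lower. Of 20 clock genes, 13 were upregulated, 9 of them beyond 2-fold, and 5 were downregulated, with a median of 0.61. The 5 that fell were LHY, CCA1, RVE1, RVE4 and RVE8, all of this MYB family. PRR3 had 14.9, 14.9 and 8.36 normalized reads at 22°C and 90.4, 128 and 84.9 at 27°C (log2 fold change 2.92, SE 0.28). GI, a large protein that stabilizes the clock and promotes flowering, rose from 129, 100 and 125 to 563, 801 and 625 (2.47), and PRR7, a pseudo-response regulator that represses morning genes, from 1126, 1037 and 1117 to 4747, 6412 and 5208 (2.31). PRR5, a further repressor of this family, went from 36.5, 33.5 and 52.3 to 136, 165 and 162 (1.91, SE 0.21, adjusted p = 1.2e-06, limma).
The following clock genes fell outside the naming rule and were chosen after their values had been seen. LHY, one of the MYB repressors that peak at dawn, fell from 26196, 25840 and 27657 normalized reads to 11330, 9508 and 10362 (log2 fold change -1.36), and its partner CCA1 from 12433, 12115 and 13075 to 8955, 10078 and 10454 (-0.35). TOC1, which represses both, rose from 742, 692 and 784 to 1414, 1687 and 1440 (1.03). All 3 subunits of the evening complex were upregulated, LUX by 1.8, ELF4 by 1.63 and ELF3 by 0.78 on the log2 scale, and for ELF3 the replicates were 1302, 1198 and 1370 at 22°C against 1953, 2505 and 2195 at 27°C. The evening element occurred in 4 of the 20 clock promoters (TOC1, PRR5, LUX and FKF1). Only the time of dawn was sampled, so a shift in the phase of the rhythm and a change in its level cannot be told apart.

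Of 21 cold-regulated genes tested, 13 were upregulated (61.9%), with a median of 0.32, and 7 were downregulated, a share of 33.3% that is near the background. COR414-TM1, a chloroplast membrane protein, rose from 935, 908 and 1037 to 4295, 4529 and 4666 normalized reads (log2 fold change 2.23). CBF1, a transcription factor that switches on cold-response genes, was close to the detection limit at 22°C (1.35, 0 and 4.18) and had 15.6, 11.1 and 15.5 at 27°C (2.69), and its neighbour CBF3 had 0, 2.48 and 0 against 4.68, 7.92 and 5.71 (2.2). KIN1, a small protein made in the cold, fell from 63.6, 102 and 85.7 to between 15.6 and 17.1 in replicates 1 and 3 at 27°C, with a mean of 16.7 (-2.23). Its near-identical copy COR6.6 rose by 0.75, and reads that mapped to both copies were counted for neither. Without replicate 2 of Heatin at 22°C the downregulated genes of this list numbered 4 in place of 7. The C-repeat core was present in 7 of the 21 promoters.

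Of the auxin response genes, Aux/IAA and GH3 genes were upregulated more often than all genes and SAUR genes were not, while genes of auxin synthesis were mostly downregulated. Of 28 Aux/IAA repressors tested, 14 were upregulated (10 to 14 when 1 Heatin sample was left out) and 5 downregulated (median 0.22). IAA20 rose most, from 16.2, 13.6 and 6.27 to 87.3, 68.1 and 49.0 normalized reads (log2 fold change 2.46). IAA2 rose from 5792, 6746 and 4964 to 9071, 10854 and 10152 (0.79). Of 10 GH3 family members, which include the enzymes that link auxin to amino acids, 6 were upregulated and 1 was downregulated. The number upregulated was 4 to 7 when 1 Heatin sample was left out. GH3.3 rose from 1424, 1204 and 1282 to 5272, 5387 and 4150 (1.91, SE 0.14, adjusted p = 9.9e-09, limma), whereas GH3.9 fell from 125, 103 and 140 to 32.7, 26.9 and 22.8 (-2.12).
Of 72 SAUR genes, small proteins that promote cell expansion, 17 were upregulated and 12 downregulated, shares of 23.6% and 16.7% that lie below those of all genes, and the median was 0.02. Without replicate 1 of Heatin at 22°C, 11 SAUR genes were upregulated. The largest changes were in genes with few reads, such as SAUR11 (4.06, 4.96 and 2.09 against a mean of 14.8, log2 fold change 1.79).

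Of the 22 genes of auxin synthesis and the nitrilase route, 3 were upregulated and 13 downregulated (median -0.44). YUC1, a flavin monooxygenase of the main route to auxin, fell from 28.4, 24.8 and 18.8 to 3.12, 6.33 and 7.34 normalized reads (log2 fold change -1.97), and YUC4 from 44.7, 23.6 and 31.4 to 14.0, 11.1 and 8.16 (-1.48). YUC8, the member through which PIF4 is known to act, went the other way, from 448, 434 and 487 to 737, 759 and 775 (0.73), and was picked out after its values had been seen. CYP79B2, which makes the precursor of indole-3-acetonitrile and of indolic glucosinolates, fell from 1467, 972 and 1198 to 803, 475 and 539 (-1.02).
The nitrilases differed from each other. NIT1 had 24942, 23934 and 27588 normalized reads at 22°C and 37553, 35808 and 39516 at 27°C, with means of 25488 ± 1887 and 37626 ± 1855 (SD, n = 3). Its log2 fold change was 0.56 and the groups did not overlap, as for AAO1 (0.35, from 3602 ± 296 to 4587 ± 146, SD), AAO2 (-0.47), NIT3 (-0.37) and PIF4 (1.20). For these 5 genes the two-sided exact permutation test gave p = 0.1, the smallest value that 3 samples against 3 can reach, and all 5 were called by limma. NIT2 (6343, 4742 and 6354 against 6254, 6113 and 5911) and AAO3 (861, 780 and 935 against 822, 904 and 840) gave p = 1 in the exact permutation test and AAO4, near the detection limit, p = 0.2.

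Among 31 xyloglucan endotransglucosylases/hydrolases (XTH), which cut and rejoin wall xyloglucan, 11 were upregulated (35.5%) and 13 downregulated (41.9%), shares near those of all genes. XTH15 had 3769, 4252 and 3306 normalized reads at 22°C and 36164, 56220 and 33688 at 27°C (log2 fold change 3.45, SE 0.17), and XTH24 rose from 5703, 4963 and 5742 to 33969, 44665 and 37182 (2.81). XTH31 fell from 1910, 1835 and 1579 to 329, 298 and 220 (-2.66), and XTH14 from 79.9, 124 and 62.7 to 15.6, 11.1 and 13.1 (-2.61). Of 19 alpha-expansins, which loosen walls without cutting them, 12 were downregulated and 2 upregulated (median -0.59), and EXPA1, a member expressed in growing leaves and guard cells, fell from 8638, 7884 and 8301 to 2571, 2276 and 2505 (-1.76).

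Root hair genes showed the strongest common decrease. Of 18 tested, 15 were downregulated, 12 of them beyond 2-fold, and 0 were upregulated, with a median of -2.10. LRX1, an extensin-like wall protein of growing root hairs, had 141, 126 and 87.8 normalized reads at 22°C and 12.5, 4.75 and 8.98 at 27°C (log2 fold change -3.67, SE 0.28). COBL9, a membrane-anchored protein needed for hair tip growth, fell from 106, 124 and 89.9 to 18.7, 3.17 and 9.79 (-3.47), and EXPA7, the hair-specific expansin, from 112, 128 and 85.7 to 14.0, 7.92 and 17.1 (-3.01). Of 16 root markers, 11 were downregulated, of which EXPA7 and COBL9 are also on the root hair list, and 2 were upregulated. Their summed level was 13526 to 13910 normalized reads at 22°C and 9742 to 11374 at 27°C. Whether a smaller share of root in the seedling contributes to the decrease was not tested.

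Photosynthesis genes were lower at 27°C almost throughout. Of 52 nuclear photosystem and antenna genes, 44 were downregulated and 1 was upregulated, with a median of -0.76. PSB28, an assembly factor of photosystem II, fell from 4041, 4075 and 3716 normalized reads to 748, 584 and 651 (log2 fold change -2.58, SE 0.09), and LHCB2.3, an antenna protein, from 61087, 66656 and 63400 to 17734, 11802 and 15515 (-2.10). The gene called upregulated was LHCB1.5 (0.22), and it lost the call without replicate 1 or 3 at 22°C, without replicate 1 or 2 at 27°C, with only the 6 Heatin samples, with all 24 samples, with no filter and at a threshold of 0.05. G-boxes occurred in 12 of the 52 promoters.
Of 23 chlorophyll synthesis genes, 22 were downregulated (median -1.06), while PORB, a protochlorophyllide oxidoreductase, rose by 0.20. DVR, the divinyl reductase, fell from 2389, 2236 and 2191 to 650, 532 and 628 (-1.92), and CHLI1, a subunit of magnesium chelatase, from 17568, 17982 and 16029 to 6699, 5721 and 6317 (-1.46). All 12 markers of green shoot tissue were downregulated. Their summed level, which includes Rubisco small subunits, Rubisco activase and antenna proteins, was 2820250 to 3097500 normalized reads at 22°C and 1546940 to 1668960 at 27°C. Some of these are near-identical copies, such as CAB1 to CAB3, and the sum leaves out reads that mapped to several copies.

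Cell division genes fell as well. Of 27 cell cycle and replication genes, 25 were downregulated, 12 of them beyond 2-fold, with a median of -0.95. CYCA3;1, a cyclin of the G1 to S transition, fell from 94.8, 103 and 117 normalized reads to 28.1, 34.8 and 32.6 (log2 fold change -1.69), and CYCB1;2, a mitotic cyclin, from 497, 510 and 596 to 210, 203 and 183 (-1.42). CDKA;1, the constitutive cell cycle kinase, was the 1 member that rose, by 0.43.
Of 8 markers of leaf hairs and the shoot meristem tested, 2 were upregulated (25%, against 29.4% of all genes) and 4 downregulated (50%, against 33.5%). The 3 that fell beyond 2-fold were the meristem gene CLV3 and the leaf hair genes GL3 and GL1. GL1, a trichome regulator, fell from 37.9, 45.9 and 50.2 to 6.24, 12.7 and 15.5 (-1.95). STM, which maintains the meristem, had the largest rise of the list, from 149, 154 and 138 to 196, 214 and 198 (0.46).

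Genes of aliphatic glucosinolates and of flavonoids were mostly downregulated. Of 16 aliphatic glucosinolate genes, 11 were downregulated (8 to 11 when 1 Heatin sample was left out) and 0 upregulated (median -0.76). MAM3, which lengthens the methionine side chain, fell from 177, 96.7 and 136 normalized reads to 40.5, 28.5 and 45.7 (log2 fold change -1.79). Of 14 indolic glucosinolate genes, 6 were downregulated and 2 upregulated (1 to 3 when 1 Heatin sample was left out), and IGMT1, a methyltransferase of that route, rose from 640, 546 and 481 to 1063, 1047 and 992 (0.90). Of 19 flavonoid and anthocyanin genes, 15 were downregulated (median -0.87) and 1 was upregulated, a call that was lost when any 1 Heatin sample other than replicate 2 at 22°C was left out. DFR, a reductase of anthocyanin synthesis, had 9.48, 9.92 and 12.5 at 22°C and 0 at 27°C, at least 2.24-fold lower, and LDOX, the enzyme that follows it, had 13.5, 6.20 and 10.5 against 0, 4.75 and 0.816 (-2.28).
Of 17 salicylic acid genes, 8 were downregulated and 2 upregulated (median -0.30), the latter 3 without replicate 1 of either temperature and 1 without replicate 3 at 22°C or replicate 2 at 27°C. ICS1, which makes the precursor of salicylic acid, fell from 772, 814 and 726 to 313, 290 and 282 (-1.38, SE 0.07), and PR5, a defence protein, was at 12.2, 13.6 and 10.5 at 22°C and at 0 at 27°C, at least 2.55-fold lower. Of 23 jasmonate genes, 6 were upregulated (26.1%) and 5 downregulated (21.7%), both shares below those of all genes, and ST2A, a sulfotransferase that inactivates hydroxyjasmonate, rose from 6085, 5779 and 4717 to 15569, 15272 and 13935 (1.44).

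In the remaining lists single genes stood out. Of 19 brassinosteroid and gibberellin genes, 6 were upregulated, a share of 31.6% that is near the 29.4% of all genes. A further 2 were downregulated (10.5%, against 33.5%), and the median was -0.05. The 1 downregulated beyond 2-fold was the gibberellin gene GA3OX2, in a list whose lowest log2 fold change was -1.87. CPD, a brassinosteroid synthesis enzyme, rose from 18319, 19246 and 18273 normalized reads to 32710, 37384 and 37730 (log2 fold change 0.95), and GA20OX1, a gibberellin synthesis enzyme known to be induced by warmth, from 70.4, 50.8 and 85.7 to 108, 119 and 140 (0.84). Of 13 flowering genes, 6 were upregulated and 1 downregulated (4 to 6 and 1 to 2 when 1 Heatin sample was left out). The largest called changes were, in order of size, those of SPL3, SVP, MAF5 and FLC. SPL3 was the 1 gene called beyond 2-fold, and it rose. The repressor SVP rose from 1221, 1385 and 1401 to 2396, 2638 and 2909 (0.98). FLC, also a repressor, rose from 520, 535 and 539 to 873, 1007 and 859 (0.78).
Of 18 nitrate genes, 11 were downregulated and 4 upregulated (median -0.38). The 1 downregulated beyond 2-fold was the nitrate transporter NRT2.1, in a list whose lowest log2 fold change was -2.15. ASN1, an asparagine synthetase induced by darkness and low sugar, rose from 20481, 21895 and 18549 to 66587, 90327 and 69664 (1.88). Of 8 genes of the thalianol and marneral clusters, 4 were downregulated and 1 was upregulated, but the number downregulated was between 1 and 3 whenever any 1 of the 6 samples was left out, so no direction is given for this group.

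The 15 seed residue markers, seed storage proteins, oleosins and late embryogenesis proteins, set apart replicate 2 of both temperatures. Their summed level was 317, 2096 and 318 normalized reads at 22°C and 753, 1796 and 709 at 27°C. Of the 15, 4 were upregulated and 1 was downregulated. Without replicate 2 of both groups, an alternative chosen after the values had been seen, 19 heat shock genes were upregulated, 14 root hair genes, 44 photosystem and antenna genes, 22 chlorophyll synthesis genes and 25 cell cycle genes were downregulated. In the same fit the upregulated and downregulated seed markers numbered 6 and 0, the leaf hair and meristem markers 4 and 4 in place of 2 and 4, the cold-regulated genes 11 and 4 and the flowering genes 4 and 0.

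To ask where Heatin altered the response, the effect of warmth in Heatin was compared with that in mock, 2 effects that share no samples. The responses were alike in size. In mock, 6699 genes (28.8%) were upregulated and 7661 (32.9%) downregulated at 27°C, with a median size of change of 0.36 on the log2 scale against 0.37 in Heatin. Of the 1177 genes upregulated beyond 2-fold in Heatin, 1130 had the same sign in mock, and 798 were also called beyond 2-fold there, 67.8% of the Heatin genes and 66.3% of the 1203 mock genes. Of the 1742 downregulated beyond 2-fold, 1686 had the same sign and 1161 were shared, 66.6% of the Heatin genes and 68.8% of the 1688 of mock. Across all genes tested, the 2 effects correlated at 0.823, a description over genes that are not independent replicates.

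**Figure D3:**
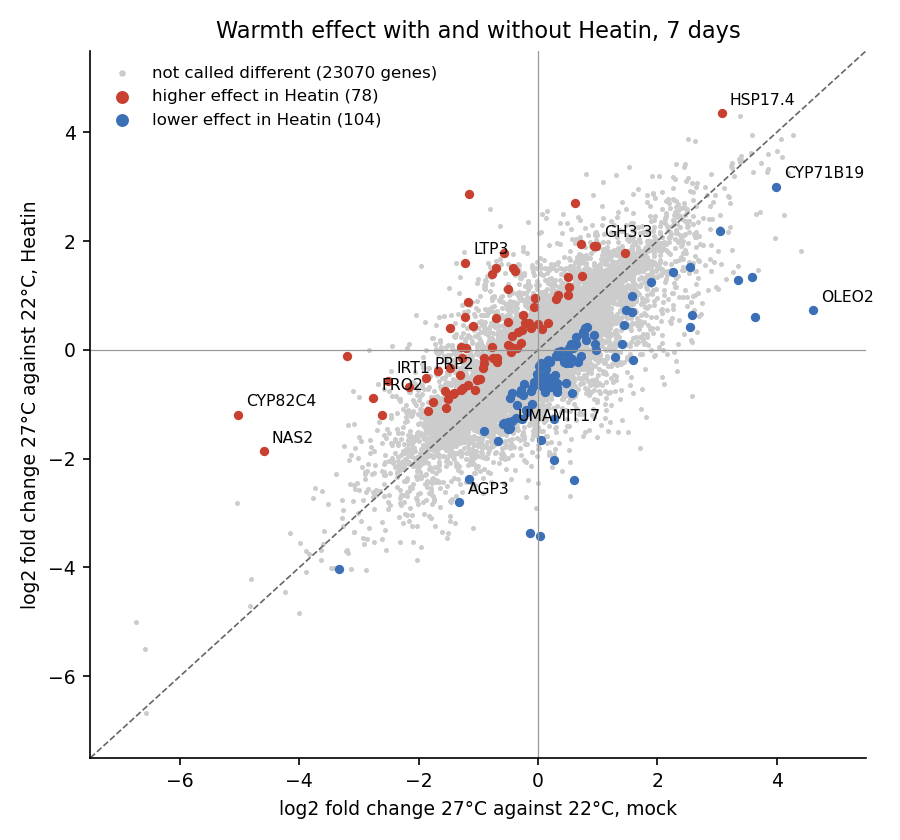
Log2 fold change of 27°C against 22°C in mock (horizontal) and in Heatin (vertical), 1 point for each of the 23252 genes, with equal effects on the dashed line. The 78 red genes had a higher and the 104 blue genes a lower effect of warmth in Heatin by the test of the difference, and CYP82C4, NAS2, FRO2 and IRT1 lie above the line at the left.

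The test of the difference itself called few genes. The effect of warmth was higher in Heatin than in mock for 78 genes (0.335%) and lower for 104 (0.447%), 30 and 23 of them by more than 2-fold. The unadjusted p-value was below 0.05 for 2903 genes. Of the 78, 30 were upregulated by sign in Heatin and downregulated in mock, 33 fell in both and 15 rose in both. Of the 104, 44 fell in Heatin and rose in mock, 30 fell in both and 30 rose in both. Leaving out single samples moved these counts to between 34 and 90 and between 36 and 107, and leaving out replicate 2 of both Heatin groups gave 47 and 49. The fit of all 24 samples gave 24 and 16, while DESeq2 on the whole reads gave 138 genes with a higher effect. The photosystem, chlorophyll, clock and cell cycle lists had 0 members among the genes called different, which does not show that their responses were equal. The aliphatic glucosinolate list also had 0, though its median was -0.76 in Heatin and -1.75 in mock, with 11 and 14 of 16 genes downregulated.

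Of all lists, that of iron uptake and storage had the most members among the genes called different. Of its 22 genes, 6 had a higher effect of warmth in Heatin than in mock and 0 a lower one, against 0.335% and 0.447% of all genes. In Heatin 6 of the 22 were upregulated (27.3%, near the 29.4% of all genes) and 10 downregulated (45.5%, against 33.5%) at 27°C, with a median of -0.24. Those beyond 2-fold were NAS2, NAS4, FER1 and BHLH39, 2 in each direction. In mock 3 were upregulated and 14 downregulated (median -0.56). NAS2, which makes the metal chelator nicotianamine, had 651, 427 and 596 normalized reads at 22°C and 210, 114 and 140 at 27°C in Heatin, but 367, 230 and 296 against 12.3, 12.3 and 9.07 in mock. Its log2 fold change was -1.87 in Heatin and -4.60 in mock, a difference of 2.73 (SE 0.32, adjusted p = 0.0014, limma). CYP82C4, not on the list, an enzyme that makes the iron-mobilizing coumarin sideretin, was at 249, 221 and 360 against 111, 127 and 117 in Heatin and at 367, 183 and 210 against 9.55, 5.67 and 4.89 in mock, with changes of -1.19 and -5.02 and a difference of 3.83 (SE 0.37, adjusted p = 0.00021, limma).
The other 5 iron genes are outside the naming rule and are given because they were called different. The ferric reductase FRO2 fell from 861, 680 and 1252 to 415, 508 and 552 in Heatin and from 1191, 719 and 815 to 138, 98.3 and 161 in mock (-0.88 against -2.77). The root iron transporter IRT1 was at 2717, 2154 and 3256 against 1765, 1555 and 2096 in Heatin and at 2416, 1582 and 1579 against 487, 176 and 380 in mock (-0.58 against -2.51). BHLH101, a transcription factor of the iron deficiency response, rose in Heatin from 172, 138 and 161 to 257, 269 and 286 and stood at 150, 128 and 136 against 131, 124 and 142 in mock (0.79 against -0.06).
Its close relative BHLH100 had few reads, with 12.2, 18.6 and 20.9 against 24.9, 25.3 and 51.4 in Heatin and 16.4, 17 and 18.7 against 8.19, 4.72 and 9.07 in mock (0.89 against -1.18). For FER3, a ferritin that stores iron, the changes were -0.22 and -0.69. At 22°C the groups of Heatin and mock overlapped for CYP82C4, FRO2 and IRT1, and at 27°C every Heatin sample lay above every mock sample. For NAS2 every Heatin sample lay above every mock sample at 22°C as well. In the fit of all 24 samples, CYP82C4, NAS2 and FRO2 were still called different, while IRT1, BHLH100, BHLH101 and FER3 were not (adjusted p from 0.41 to 0.66, limma). Over all 25 alternatives, BHLH100 was called in 11 and FER3 in 10.

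**Figure D4:**
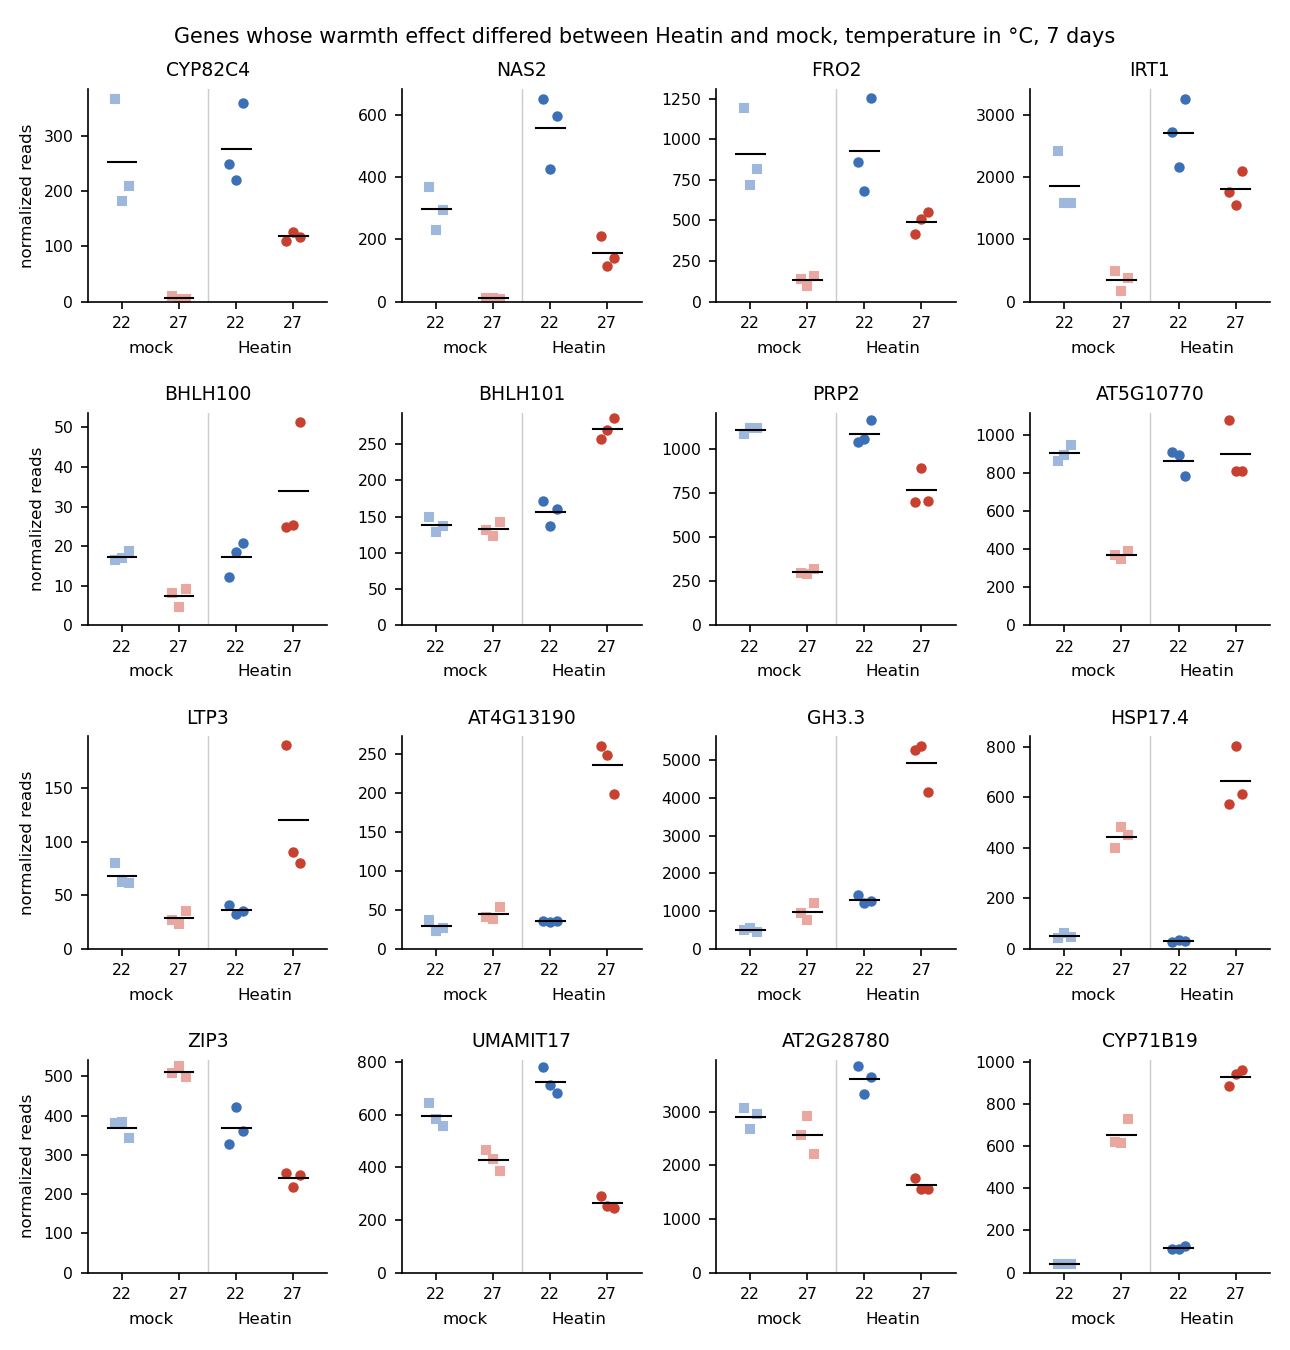
Normalized reads of 16 genes whose response to warmth was called different, in each of the 3 replicates of mock (squares) and Heatin (circles) at 22°C and 27°C, with the group mean as a black bar and each vertical axis starting at 0. CYP82C4 and NAS2 fell to under 13 normalized reads in mock at 27°C and stayed above 100 in Heatin.

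Other genes with a higher effect in Heatin were mostly ones that fell in mock. PRP2, a proline-rich wall protein, fell from 1040, 1057 and 1163 to 702, 892 and 707 normalized reads in Heatin and from 1083, 1120 and 1119 to 297, 290 and 320 in mock, log2 fold changes of -0.51 and -1.87 (difference 1.36, SE 0.12, adjusted p = 0.00014, limma). AT5G10770, an aspartyl protease, stood at 907, 892 and 784 against 1079, 809 and 810 in Heatin, with overlapping groups, and fell from 862, 893 and 948 to 371, 346 and 389 in mock (0.05 against -1.29). LTP3, a lipid-transfer protein, rose from 40.6, 32.2 and 35.5 to 190, 90.3 and 80.0 in Heatin and fell from 80.5, 62.3 and 61.8 to 27.3, 23.6 and 35.6 in mock (1.60 against -1.22). AT4G13190, a protein kinase, rose in Heatin from 35.2, 34.7 and 35.5 to 260, 249 and 198, while mock had 36.8, 22.7 and 27.3 against 40.9, 38.7 and 53.7 (2.7 against 0.62).
AT5G02230 (0.64 in Heatin, -0.24 in mock) and the sucrose synthase SUS3 (0.49 and -0.15) completed the 8 genes of this direction with the smallest adjusted p-values. Members of the lists above with a higher effect were HSP17.4 (4.36 and 3.08), HSP70B (1.37 and 0.74), GH3.3 (1.91 and 0.97), XTH18 (0.36 and -0.27), EXPA4 (0.51 and -0.49) and SAUR30 (0.09 and -0.51), chosen after their values had been seen. Of these 6, EXPA4 was called different in all 25 alternatives, HSP70B in 24, HSP17.4 in 23, XTH18 in 21, GH3.3 in 20 and SAUR30 in 12. In the fit of all 24 samples HSP17.4 (adjusted p = 0.55), HSP70B (0.56), XTH18 (0.31) and SAUR30 (0.15, limma) were not called. For GH3.3 the mock groups were lower, with 495, 553 and 438 at 22°C and 943, 776 and 1225 at 27°C.

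Among the genes with a lower effect in Heatin, ZIP3, a zinc transporter, fell from 328, 420 and 360 to 254, 219 and 247 normalized reads in Heatin and rose from 382, 383 and 342 to 509, 526 and 499 in mock, log2 fold changes of -0.61 and 0.47 (difference -1.09, SE 0.14, adjusted p = 0.0030, limma). UMAMIT17, a member of an amino acid transporter family, fell from 782, 712 and 682 to 290, 255 and 246 in Heatin and from 647, 585 and 557 to 468, 432 and 385 in mock (-1.46 and -0.48), and its family member UMAMIT20 changed by -0.63 in Heatin and by -0.03 in mock. The 2 genes lie next to each other, and reads that overlap neighbours could not be assigned by strand.
CYP71B19, a cytochrome P450, rose less in Heatin (112, 110 and 123 to 884, 942 and 962) than in mock (42.3, 39.7 and 38.8 to 617, 614 and 728) (3.00 against 3.98), and was higher in Heatin at both temperatures. AT2G28780 fell from 3855, 3329 and 3645 to 1765, 1568 and 1567 in Heatin and stood at 3074, 2681 and 2955 against 2560, 2921 and 2204 in mock (-1.14 and -0.19). The others of these 8 were AT3G25930 (-0.68 and 0.08), AT1G12080 (0.69 and 1.58) and AT1G77885 (-0.47 and 0.29).
Members of the lists with a lower effect were ST2A (1.44 and 2.26), SAUR3 (-0.77 and 0.31), the nitrate transporter NRT1.5 (-0.58 and -0.06), the root hair gene AGP3 (-2.80 and -1.32), the lupeol synthase LUP1 (-0.12 and 0.30), the root markers PIP2;4 (-0.73 and -0.28) and PHT1;1 (-0.44 and -0.01), and the oleosin OLEO2. Several of these calls were not stable. Of 25 alternatives, PIP2;4 was called different in 7, SAUR3 in 8, LUP1 in 9, AGP3 in 10, ST2A and PHT1;1 in 22 and NRT1.5 and OLEO2 in 24. In the fit of all 24 samples none of these 8 was called (adjusted p from 0.11 for SAUR3 to 0.74 for NRT1.5, limma). OLEO2 went from 8.12, 40.9 and 18.8 to 40.5, 26.9 and 28.6 in Heatin, but had 2.73, 1.89 and 4.31 against 92.8, 90.7 and 95.6 in mock (0.73 and 4.61). The seed residue markers as a whole summed to 321 to 457 at 22°C and 1074 to 1544 at 27°C in mock, and their part in these differences was not tested.

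The response of Heatin-treated seedlings also depended on age. At 7 days the effect of warmth was higher than at 2 days for 4997 of 23427 genes (21.3%) and lower for 5874 (25.1%). Of the 1177 genes upregulated beyond 2-fold at 7 days, 681 were also upregulated at 2 days and 59 were downregulated, and of the 1742 downregulated, 1118 were downregulated and 158 upregulated. The 2 effects correlated across genes at 0.478. Seedlings of 2 days were also at an earlier stage of growth, and age and growth stage cannot be told apart.
Photosynthesis differed most. The median of the photosystem and antenna genes was 0.05 at 2 days and -0.76 at 7 days, and for 42 of 52 the effect was lower at 7 days. For LHCB2.3 the log2 fold change was -0.13 at 2 days and -2.10 at 7 days (difference -1.97, adjusted p = 0.00021, limma). Root hair and cell cycle genes were lower at both ages, with medians of -2.55 and -0.82 at 2 days. Heat shock genes had a median of 0.49 at 2 days, and the effect was higher at 7 days for 12 of 25 and lower for 4. HSP17.4 changed by 0.49 at 2 days, which was not called, and by 4.36 at 7 days.
SAUR genes went from a median of 0.79 at 2 days, with 45 of 72 upregulated, to 0.02 at 7 days, and the effect was lower at 7 days for 36. Iron genes went from a median of 0.46 to -0.24. The fall of AT2G15020 was -1.05 at 2 days and -6.67 at 7 days, and AT1G66100 rose by 1.1 at 2 days and fell by 4.03 at 7 days. NIT1 changed by -0.28 at 2 days and by 0.56 at 7 days (difference 0.84, adjusted p = 3.2e-05, limma), and AT2G28780 by 3.21 and -1.14.

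**Figure D5:**
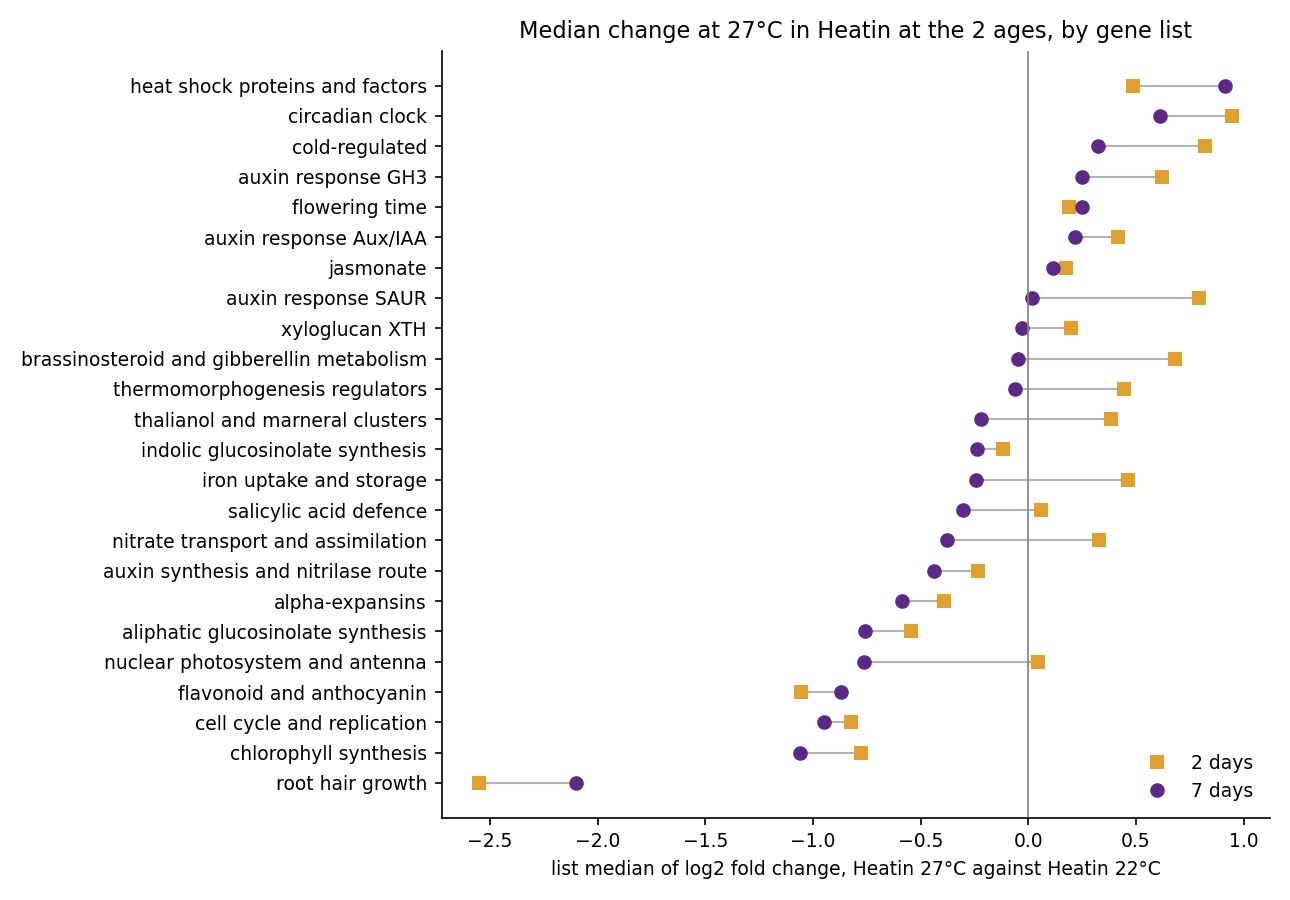
Median log2 fold change of 27°C against 22°C in Heatin for each of 24 gene lists at 2 days (yellow squares) and 7 days (purple circles), joined by a line. The photosystem and antenna list moved from 0.05 to -0.76 and the SAUR list from 0.79 to 0.02, while the root hair list was at -2.55 and -2.10.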

How the data were processed

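RNA of whole Arabidopsis seedlings was sequenced (single-end reads of an Illumina TruSeq library) in 24 samples, 3 for each combination of compound, temperature and age. Per the methods and the submitters' processing notes, the authors mapped the reads to TAIR10 with TopHat2 2.0.13, counted them per gene with HTSeq 0.6.1 without regard to strand, removed CPuORF annotations and adjusted the depth with DESeq. What the authors deposited are these normalized read counts per gene (a signal on a linear scale). Divided by the value of 1 read, all values came out whole (tolerance 0.1 reads), which gave 19705950 to 60575036 reads on genes per sample. Counting error limits genes that have few reads. Overlapping and antisense genes cannot be told apart in these counts. Reads that mapped to several places, as those of near-identical copies can, were counted for no gene.

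Groups came from the sample labels. From the deposited values, log2(value + 1) was fitted with limma 3.58.1 in R 4.3.3 (lmFit, eBayes with a mean-variance trend, 1 mean per group) over the 12 samples of 7 days, or all 24 samples for the difference between ages (23427 genes), for genes with a mean of at least 1, and p-values were adjusted by Benjamini-Hochberg over all genes tested. The fit was tested on simulated data. Single genes of the study were also tested by a two-sided exact permutation test. Nothing in the labels says that samples with the same replicate number belong together. Genes named are the 12 largest rises and falls with adjusted p below 0.1, a mean of at least 20 in the higher group and groups that do not overlap, the 8 genes with the smallest adjusted p of the difference from mock in each direction, the study's nitrilases, aldehyde oxidases and PIF4, and up to 4 called members of each list. The 24 gene lists, the 4 marker lists and the members were chosen with earlier results of these data known. Of the names listed, 9 were not matched to an identifier. For gene names and promoters TAIR10.1 (RefSeq) was used, which holds 32835 of the 33540 identifiers. Alternatives were other pseudocounts, filters, scalings and sample sets, voom, edgeR 4.0.16 and DESeq2 1.42.0 on the whole reads, a replicate block, a threshold of 0.05 and leaving out samples. Figures were drawn with matplotlib 3.10.9.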

Additional observations from a re-analysis of the deposited data

Results flagged for a closer look

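The test of the difference between the effects of warmth in Heatin and in mock set apart 78 genes with a higher and 104 with a lower effect in Heatin at 7 days. Among the named genes, the difference of the log2 fold changes (Heatin minus mock) was positive for 19: CYP82C4 3.83, LTP3 2.82, NAS2 2.73, AT4G13190 2.09, BHLH100 2.07, IRT1 1.93, FRO2 1.88, PRP2 1.36, AT5G10770 1.34, HSP17.4 1.28, EXPA4 1.00, GH3.3 0.95, AT5G02230 0.89, BHLH101 0.85, SUS3 0.64, HSP70B 0.63, XTH18 0.63, SAUR30 0.59 and FER3 0.46. It was negative for 16: OLEO2 -3.88, AGP3 -1.48, ZIP3 -1.09, SAUR3 -1.08, CYP71B19 -0.98, UMAMIT17 -0.98, AT2G28780 -0.96, AT1G12080 -0.89, ST2A -0.82, AT3G25930 -0.76, AT1G77885 -0.75, UMAMIT20 -0.60, NRT1.5 -0.52, PIP2;4 -0.45, PHT1;1 -0.43 and LUP1 -0.42. The largest positive differences were those of CYP82C4, LTP3 and NAS2, and the largest negative one that of the oleosin OLEO2, whose replicates at 22°C in Heatin ranged from 8.12 to 40.9 normalized reads, with the highest value in the replicate that was also highest in the other seed markers. Between the 2 ages of Heatin-treated seedlings, the effect of warmth was higher at 7 days for 4997 genes and lower for 5874.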

How the results depend on the processing

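The counts of genes up- and downregulated by warmth in Heatin, the counts beyond 2-fold, the counts of the difference between ages and the 5 single genes of the study stayed within 1.5 times under every alternative. The genes upregulated numbered 6004 to 7389 and those downregulated 6753 to 7946 over all alternatives, and other scalings moved the median of all genes from -0.03 to at most 0.00. The counts of the difference from mock were less stable. Against 78 higher and 104 lower genes, the fit of all 24 samples gave 24 and 16, a threshold of 0.05 gave 40 and 48, and DESeq2 gave 138 higher genes. Leaving out 1 replicate gave 34 to 90 higher and 36 to 107 lower. The count of higher genes fell by over 1.5 times without replicate 2 (34) or 3 (40) of mock 22°C, replicate 1 of mock 27°C (43), replicate 1 (51) or 2 (38) of Heatin 22°C or replicate 1 of Heatin 27°C (38). The count of lower genes did so without replicate 2 of mock 22°C (36), replicate 1 (40), 2 (63) or 3 (62) of mock 27°C, replicate 1 (63) or 2 (52) of Heatin 22°C or replicate 1 of Heatin 27°C (63). Without replicate 2 of both Heatin groups, chosen after seeing the data, there were 47 and 49. The causes were not tested, beyond the loss of samples that these fits bring.

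With the replicate number as a block, the difference counts were 203 and 243, and that fit lost no call among the 35 named genes of the difference. Same-numbered Heatin samples deviated together with correlations of 0.021, 0.096 and 0.077. For replicates 2 and 3 these were the highest correlations of the samples concerned. Replicate 1 at 27°C correlated best with replicate 3 at 22°C (0.027). Such small values cannot decide whether samples of the same number were grown or handled together. Of the 35 named genes of the difference, 10 were called under all alternatives, namely PRP2, CYP82C4, AT5G10770, NAS2, AT4G13190, LTP3, ZIP3, UMAMIT17, EXPA4 and FRO2, and 24 were not called in the fit of all 24 samples. Of 135 named genes called for warmth in Heatin, 123 kept the call under every alternative. Signs turned for 2 genes that were not called. NIT2 was between -0.0598 and 0.151 when 1 replicate was left out, and at -0.0623 without replicate 2 of both groups. AAO3 was at 0.0264 with TMM, at 0.0297 with median-of-ratios scaling, at 0.0319 with DESeq2, at 0.0470 with voom and at 0.0412 with edgeR, and between -0.111 and 0.0602 when replicates were left out. Genes under about 20 normalized reads, such as CBF3, SAUR11 or CYP79F1, are limited by depth.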
